A study of Mus musculus with 14 samples.

Results

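miR-7a and miR-7b (assays mmu-miR-7a and mmu-miR-7b) are the 2 mouse members of the miR-7 family on a real-time PCR card with assays for 375 microRNAs. They were chosen by assay name, and the pair was singled out with its values in graft-infiltrating lymphocytes (GIL) in view. Both assays gave a threshold cycle (Ct) on 14 of 14 arrays. Mice were 8 to 10 weeks old, and grafts were placed heterotopically. Allogeneic hearts (BALB/c donors, C57BL/6 recipients, recorded as rejected) and syngeneic hearts (C57BL/6 donors and recipients, recorded as not rejected) were taken on day 7 and set against normal BALB/c hearts. GIL of the same 2 kinds of graft were taken on day 5 and set against peripheral mononuclear blood cells (PBMC), for which untreated C57BL/6 mice were used. There were 3 arrays of each graft group and 1 of each normal group. RNA from 3 animals was combined before each array was run, and n is the number of such pools. The heart strain differs between allogeneic and syngeneic grafts, and the normal hearts are of the allogeneic donor strain.

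A microRNA is cut from a hairpin precursor and guides Argonaute proteins to messenger RNAs, largely through its seed, the bases 2 to 8 from the 5′ end. The miR-7 family is conserved across animals and is known chiefly from neurons, the pituitary and the endocrine pancreas. In brain it is bound by the circular RNA Cdr1as, whose cleavage is directed by miR-671.

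The mature sequences show how close the 2 members are, with the seed in capitals. Both are from RefSeq (GRCm38.p6). The assay names carry no arm, and the mature form of the 5′ arm is taken here to be the one measured.

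miR-7a: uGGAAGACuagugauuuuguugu
miR-7b: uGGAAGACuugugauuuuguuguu

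Counted from the 5′ end of miR-7a, the difference over 23 bases is A10U, and miR-7b has 1 further base at its 3′ end. The seed is identical, and of 1679 mature mouse names in the RefSeq table these 2 carry it. Because the targets of the 2 assays differ at so few bases, detection of one member by the assay of the other is possible and was not tested.

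Both come from 3 hairpin genes, shown with the mature arm in capitals because the miR-7a assay cannot tell its 2 source genes apart.

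Mir7-1: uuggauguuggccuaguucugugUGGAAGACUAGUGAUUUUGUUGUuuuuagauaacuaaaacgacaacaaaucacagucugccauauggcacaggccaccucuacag
Mir7-2: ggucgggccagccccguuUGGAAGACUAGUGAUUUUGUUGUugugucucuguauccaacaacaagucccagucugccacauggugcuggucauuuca
Mir7b: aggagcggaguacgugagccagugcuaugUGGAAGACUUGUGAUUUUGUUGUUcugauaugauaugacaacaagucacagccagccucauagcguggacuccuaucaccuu

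Mir7-1 lies at chr13:58392779-58392886 on the minus strand, within the span of Hnrnpk, which encodes an RNA-binding protein. Mir7-2 lies at chr7:78888277-78888373 on the plus strand and Mir7b at chr17:56242988-56243098 on the plus strand, and neither is inside another gene of the RefSeq table.

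Whole-heart arrays detected 228 to 260 assays at a Ct under 35, and GIL and PBMC arrays 161 to 221. Allogeneic GIL pool 3 stood apart, with 42.9% of assays detected and a mean reference Ct of 27.95, against 23.2 to 25.8 on the other 6 arrays of its table. Levels are given in log2 units as minus the Ct, set against the average reference Ct on the same array, so that a higher value is a higher level. The reference assays were those detected on all arrays of a table (210 in hearts, 137 in GIL and PBMC), and levels scaled this way are compared only within a table.

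Both members were higher in rejected allogeneic hearts than in syngeneic hearts on day 7, by similar amounts. The difference was 1.98 ± 0.25 log2 units for miR-7a (SE, n = 3 pools per group, 3.94-fold) and 2.11 ± 0.53 for miR-7b (4.31-fold). Normal hearts were lowest for both. The heart arrays hold other animals than the GIL arrays, and the differences in hearts were tested. Earlier results of these data were known when the members were chosen, so these tests may not be free of that choice.

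miR-7a gave Ct values of 25.5, 25.9 and 26.4 in allogeneic heart pools 1, 2 and 3, against 26.9, 27.9 and 28.7 in the syngeneic pools and 29.6 in normal hearts. Its levels were -2.34, -2.76 and -2.93 log2 units in allogeneic hearts, against -4.54, -4.54 and -4.89 in syngeneic hearts and -5.75 in normal hearts. Every allogeneic pool lay above every syngeneic pool, and the gap between the groups was wider than the range within either. miR-7a rose in allogeneic hearts (95% interval 1.38 to 2.58 log2 units, limma adjusted p = 0.00343).

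miR-7b gave Ct values of 26.2, 26.8 and 25.1 in allogeneic heart pools 1, 2 and 3, against 27.3, 27.999 and 28.9 in the syngeneic pools and 30.0 in normal hearts. Its levels were -2.97, -3.73 and -1.60 log2 units in allogeneic hearts, against -4.86, -4.63 and -5.13 in syngeneic hearts and -6.12 in normal hearts. The groups did not overlap, but the allogeneic pools spread over more than 2 log2 units, with pool 3 highest. miR-7b rose in allogeneic hearts (95% interval 0.84 to 3.38, limma adjusted p = 0.0253).

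The high miR-7b value of allogeneic pool 3 came from a well that the instrument software had marked with the flag headed BPR, as had the miR-7a well of syngeneic pool 1. The flag stood on 13 of 1709 heart wells with a Ct. Without all wells so marked, miR-7b was higher by 1.55 log2 units in allogeneic hearts (limma adjusted p = 0.0231) and miR-7a by 2.06 (limma adjusted p = 0.0062).

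**Figure D1:**
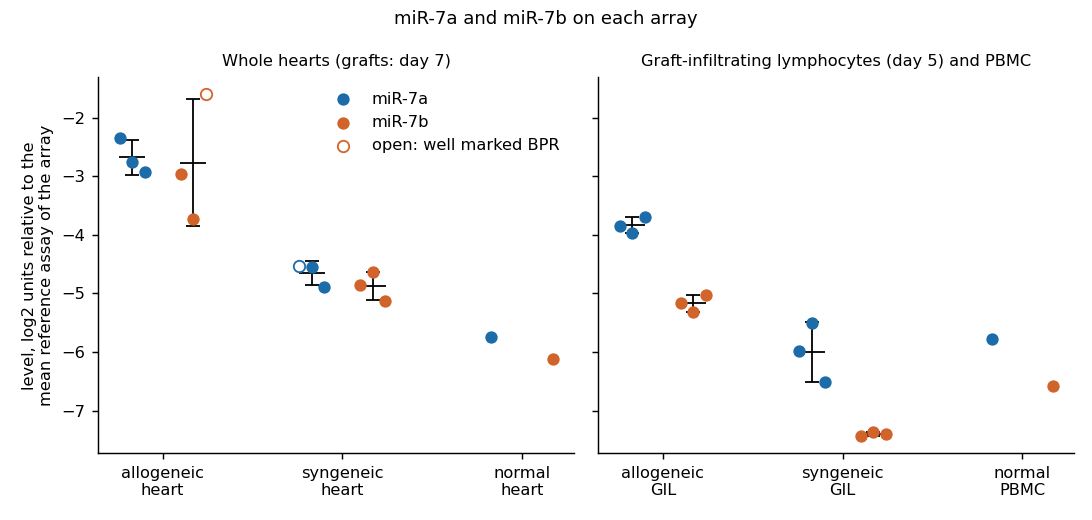
Levels of miR-7a (blue) and miR-7b (orange) on each of the 14 arrays, in log2 units relative to the mean reference assay of the array, with hearts on the left and GIL and PBMC on the right. Points are pools, black bars the mean ± SD of 3 pools, and open points wells marked BPR. In hearts and in GIL all 3 allogeneic pools lie above all 3 syngeneic pools for both members.

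Of 238 assays tested in hearts, 41 (17.2%) were called higher in allogeneic hearts at an adjusted p under 0.05 and 36 (15.1%) lower, and both members were among the higher ones. Non-overlapping, higher allogeneic values were found for 26.6% of 237 assays. By size, miR-7b ranked 16 and miR-7a ranked 18 from the highest difference, where the median of all assays tested was 0.02 log2 units.

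**Figure D2:**
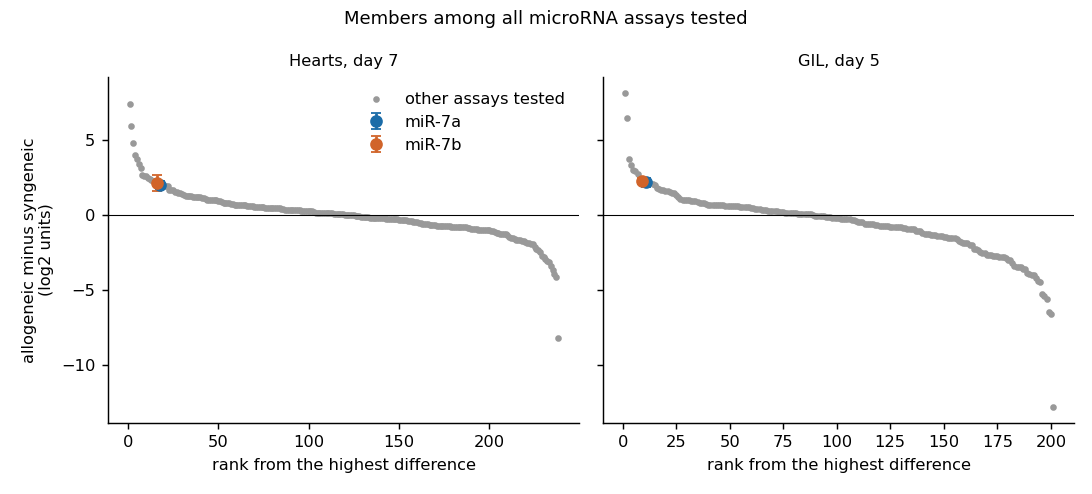
Allogeneic minus syngeneic difference in log2 units (vertical axis) against its rank from the highest (horizontal axis), for the 238 assays tested in hearts and the 201 in GIL. Grey points are other assays, and miR-7a (blue) and miR-7b (orange) carry the SE of the fit. In hearts the members stand at ranks 18 and 16, and in GIL at ranks 11 and 9.

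miR-7a kept its call under 18 of 19 tested alternatives, the exception being run day as a fixed block (1.90 log2 units, limma adjusted p = 0.0721), which left 1 residual degree of freedom and 2 calls among all assays. miR-7b kept its call under 12 of 19. It was lost without syngeneic pool 1 (limma adjusted p = 0.0568), syngeneic pool 2 (0.0637), syngeneic pool 3 (0.0828) or allogeneic pool 1 (0.0722), with no filter on undetected assays (0.0643), with the run day block (0.0751) and with the replicate block (0.0615). Its difference stayed between 1.55 and 2.60 log2 units in all 19, and without the marked pool 3 it was 1.55 and still called (limma adjusted p = 0.0292). On the 2 run days that held both groups, allogeneic minus syngeneic was 2.19 and 1.61 for miR-7a and 1.89 and 3.03 for miR-7b. The 2.19 and the 3.03 each rest on a marked well.

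**Figure D3:**
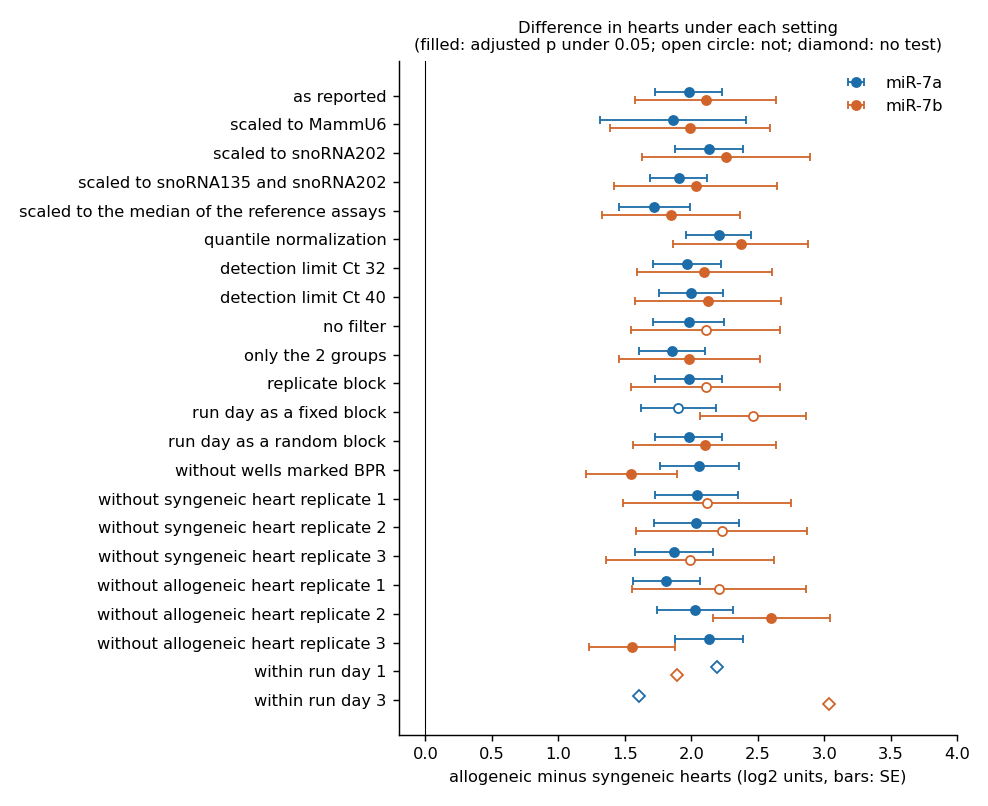
Allogeneic minus syngeneic heart difference in log2 units (horizontal axis) for miR-7a (blue) and miR-7b (orange) under each setting (rows), with bars for the SE. Filled circles passed an adjusted p of 0.05, open circles did not, and diamonds are single pairs of arrays with no test. All values lie between 1.55 and 3.03, to the right of 0.

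Against the single normal heart array, allogeneic hearts were higher by 3.07 ± 0.35 log2 units for miR-7a (8.38-fold, limma adjusted p = 8.73e-04) and by 3.35 ± 0.75 for miR-7b (10.2-fold, limma adjusted p = 0.0119). In that comparison 63 of 241 assays (26.1%) were called higher. Both calls held under all 16 alternatives run, but some of these could change only the spread or the number of assays tested. With no filter, or without syngeneic pool 1 or 2, the differences were again 3.07 and 3.35. Run day as a fixed block could not be fitted for this comparison. Syngeneic hearts stood at 1.09 ± 0.35 relative to the normal array for miR-7a (95% interval 0.24 to 1.94, limma adjusted p = 0.0733) and at 1.24 ± 0.76 for miR-7b (95% interval -0.58 to 3.06, limma adjusted p = 0.262). Neither passed, where 28 of 242 assays (11.6%) were called higher. Scaled to snoRNA202, the small RNA the authors used, miR-7a passed (1.53, limma adjusted p = 0.0305), and under quantile normalization it stood at -0.11. The lone normal array was assumed to vary like the graft groups, and these 3 heart comparisons share arrays. No graft array was run on the day of the normal array. Run day and group therefore cannot be told apart in the comparisons with normal hearts.

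In the authors' deposited table, where normal hearts are at 1, the relative quantity of miR-7a was 11.9 to 13.3 in allogeneic hearts and 2.395 to 3.41 in syngeneic hearts. That of miR-7b was 7.84, 10.7 and 43.4 in allogeneic hearts and 2.64 to 3.55 in syngeneic hearts. The value of 43.4 in the authors' deposited table belongs to the marked well.

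Other cell markers moved in the same hearts. Against syngeneic hearts, 17.2% of all assays tested were called higher in allogeneic hearts and 15.1% lower. The leukocyte list (5 microRNAs of blood cells, among them miR-142-3p, miR-142-5p and miR-150) had a summed level of 7.83 to 8.26 log2 units in allogeneic hearts, against 7.11 to 7.57 in syngeneic and 6.68 in normal hearts. Of its 5 members 2 were called higher in allogeneic than in syngeneic hearts and 0 lower, with a median difference of 1.02. miR-150 went the other way without passing, at -0.49 ± 0.22 (limma adjusted p = 0.124). The erythroid pair miR-451 and miR-486 had a summed level of 3.58 to 4.83 in allogeneic hearts, against -0.74 to 1.66 in syngeneic and 3.01 in normal hearts. Of the pair, miR-451 was called higher in allogeneic than in syngeneic hearts (3.99 ± 0.71, limma adjusted p = 0.00797), while miR-486 stood at -0.16 ± 0.24 (limma adjusted p = 0.608). The cardiac muscle list, 6 microRNAs of heart muscle, went the other way, at 9.13 to 9.47 in allogeneic hearts, against 10.5 to 11.3 in syngeneic and 12.2 in normal hearts (5 of 6 called lower). The endothelial pair of miR-126 arms stood at 6.78 to 7.39, against 8.55 to 9.001 in syngeneic hearts and 10.03 in normal hearts, with 2 of 2 called lower in allogeneic hearts. The mesenchymal list of miR-199a and miR-214 stood at 2.06 to 2.84, against 3.91 to 4.67 in syngeneic hearts and 3.41 in normal hearts, with 2 of 2 tested members called lower in allogeneic hearts. No leukocyte, erythroid, cardiac or endothelial marker was undetected in any heart group. The part of these changes in the rise of miR-7a and miR-7b was not tested, and in bulk RNA more cells of a type and more RNA per cell cannot be told apart.

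The neuronal and endocrine list, microRNAs of the tissues in which miR-7 is best known, had 1 call in this heart comparison. Its summed level was 1.38 to 1.85 log2 units in allogeneic hearts, against 1.76 to 2.08 in syngeneic and 2.79 in normal hearts. Of its 8 members 5 could be tested, with a median difference of -0.12 against 0.02 for all assays. Among all assays tested 17.2% were called higher, so 1 call among 5 members is near that share. miR-153 was the 1 member called higher, at 3.10 ± 0.60 (limma adjusted p = 0.0116), a value that depends on the limit of Ct 35 at which it was set in all syngeneic pools, and 0 were called lower. miR-9, a microRNA of neurons and their precursors, stood at -0.71 ± 0.32 (limma adjusted p = 0.136). miR-375, a microRNA of pancreatic islets, was undetected in normal hearts and did not pass the filter in this comparison, nor did miR-124, a microRNA of neurons.

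miR-671-3p, from the precursor whose other arm directs the cleavage of Cdr1as, is the 1 card assay of the miR-7 network list. Its levels were -2.06, -2.46 and -2.23 log2 units in allogeneic hearts, against -2.91, -2.38 and -2.18 in syngeneic hearts and -2.46 in normal hearts. The groups overlapped, and the difference was 0.24 ± 0.27 (limma adjusted p = 0.511). In GIL it was -4.60, -4.93 and -4.03 in allogeneic pools, against -3.90, -3.49 and -3.75 in syngeneic pools and -2.92 in PBMC. It stood at -0.80 ± 0.30 in allogeneic minus syngeneic GIL (limma adjusted p = 0.0822).

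In GIL on day 5 both members were again higher in the allogeneic group, by 2.16 ± 0.31 log2 units for miR-7a (SE, n = 3 pools per group, 4.47-fold) and by 2.23 ± 0.20 for miR-7b (4.70-fold). The pair was chosen on these values, so they are a description without a test. miR-7a levels were -3.85, -3.97 and -3.70 log2 units in allogeneic pools 1, 2 and 3, against -5.98, -5.50 and -6.52 in syngeneic pools and -5.78 in PBMC. The PBMC value fell inside the syngeneic range. miR-7b levels were -5.16, -5.32 and -5.03 in allogeneic pools, against -7.44, -7.37 and -7.40 in syngeneic pools and -6.59 in PBMC. Here PBMC lay between the graft groups, and the SD within a group was 0.15 in allogeneic and 0.034 in syngeneic GIL.

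Ct values in GIL were later than in hearts. For miR-7a they were 27.98, 28.97 and 31.65 in allogeneic pools, against 30.71, 31.28 and 31.55 in syngeneic pools and 28.96 in PBMC. For miR-7b they were 29.3, 30.3 and 33.0 in allogeneic pools, against 32.2, 33.1 and 32.4 in syngeneic pools and 29.8 in PBMC. The Ct of allogeneic pool 3 was therefore as late as those of syngeneic pools for both members. The separation appears after scaling to the array's own reference. Without that pool the differences were 2.19 for miR-7a and 2.26 for miR-7b. No GIL or PBMC well of either member was marked by the software.

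In GIL 25 of 201 assays (12.4%) were called higher in the allogeneic group and 23.9% lower, and 24.4% had non-overlapping, higher allogeneic values. miR-7b ranked 9 and miR-7a ranked 11 from the highest difference, where the median of all assays tested was -0.24 log2 units. Against PBMC, allogeneic GIL stood at 1.94 ± 0.45 for miR-7a and 1.42 ± 0.28 for miR-7b, and syngeneic GIL at -0.22 ± 0.46 and -0.82 ± 0.30. The median of all assays tested was -1.19 in allogeneic GIL minus PBMC and -0.77 in syngeneic GIL minus PBMC. These values moved with the scaling. Allogeneic GIL stood at 3.30 and 2.78 scaled to snoRNA202, and at 0.86 and 0.030 after quantile normalization. Syngeneic GIL stood at 0.25 and -0.34 scaled to snoRNA202, and at -2.27 and -3.34 after quantile normalization. In the 2 comparisons with PBMC, 47 of 212 assays (22.2%) were called higher in allogeneic GIL and 66 of 229 (28.8%) in syngeneic GIL. In the authors' deposited table, which is scaled to snoRNA202 and has PBMC at 1, miR-7a was 8.13, 13.98 and 8.43 in allogeneic GIL and 0.969 to 1.53 in syngeneic GIL. In the authors' deposited table miR-7b was 5.74, 9.61 and 5.87 in allogeneic GIL and 0.723 to 0.919 in syngeneic GIL.

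All syngeneic GIL arrays were run on 1 day and the allogeneic arrays on 2 other days, so no run day held both groups and run day and group cannot be told apart in GIL. The PBMC array was also alone on its run day, so the comparisons with PBMC share this limit. With run day as a random block the differences were 2.16 and 2.23 for miR-7a and miR-7b (consensus correlation -0.0086). Because each run day lies within 1 group, this block cannot separate run day from group, and no conclusion is drawn from it. The leukocyte list had a summed level of 5.91 to 6.53 log2 units in allogeneic GIL, against 5.27 to 6.07 in syngeneic GIL and 8.53 in PBMC, with 2 of 5 members called higher in allogeneic GIL. The cells labelled lymphocytes also carried the cardiac muscle list, at 5.18 to 6.45 in allogeneic GIL, against 3.78 to 4.47 in syngeneic GIL and -3.67 in PBMC, where 4 of its 6 members were undetected. Of 3 cardiac members tested 2 were called higher in allogeneic GIL. The mesenchymal list stood at 1.91 to 3.13 in allogeneic GIL, against 4.43 to 4.71 in syngeneic GIL and -4.84 in PBMC, with 3 of 3 called lower in allogeneic GIL. The endothelial pair stood at 4.55 to 5.32 in allogeneic GIL, against 5.79 to 6.42 in syngeneic GIL and 0.28 in PBMC, with 1 of 2 called lower. Of the erythroid pair miR-451 alone was tested and was not called. The list linked to proliferation, 11 microRNAs of the miR-17 cluster and its relatives, had a summed level of 6.84 to 7.37 in allogeneic GIL, against 6.19 to 6.58 in syngeneic GIL and 8.68 in PBMC, with 7 of 11 called higher in allogeneic GIL. In hearts the same list stood at 7.86 to 8.35 in allogeneic, against 7.46 to 7.65 in syngeneic and 7.00 in normal hearts, with 3 of 11 members called higher. Over all assays tested, 12.4% were called higher and 23.9% lower in allogeneic GIL, and 17.2% higher in allogeneic hearts. The part of these lists in the miR-7 values was not tested.

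The neuronal and endocrine list in GIL had a summed level of 0.27 to 0.46 log2 units in allogeneic, against 0.95 to 1.47 in syngeneic GIL and 1.99 in PBMC. Of 4 members tested, miR-124 was called higher in allogeneic GIL (1.80 ± 0.33, limma adjusted p = 0.0102) and miR-218 lower (-1.54 ± 0.28, limma adjusted p = 0.0105). miR-375 and miR-153 were undetected in both GIL groups.

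The allogeneic minus syngeneic differences were 1.98 in hearts and 2.16 in GIL for miR-7a, and 2.11 and 2.23 for miR-7b. How near the 2 sources stood depended on the scaling. Scaled to snoRNA202 they were 2.13 in hearts and 3.05 in GIL for miR-7a, and 2.26 and 3.12 for miR-7b. Scaled to MammU6 they were 1.86 and 2.98 for miR-7a, and 1.99 and 3.05 for miR-7b. Hearts were taken on day 7 and GIL on day 5, and the difference between the 2 effects was not tested because the GIL values had chosen the pair. To set all groups in 1 order, levels were also scaled to the 133 assays detected on all 14 arrays. Over these, miR-7a averaged -3.86 ± 0.14 log2 units in allogeneic GIL and -4.36 ± 0.23 in allogeneic hearts (SD, n = 3). Below them came PBMC at -5.81, syngeneic GIL at -6.04 ± 0.52, syngeneic hearts at -6.20 ± 0.21 and normal hearts at -7.28. Syngeneic GIL and syngeneic hearts overlapped, and PBMC lay inside the range of syngeneic GIL. The order of these lower groups depends on the scaling. The deposited delta Ct counts cycles past snoRNA202, so a higher value is a lower level. For miR-7a it was 12.195 to 12.705 in syngeneic hearts, 12.145 to 12.807 in syngeneic GIL and 12.761 in PBMC. There PBMC lay below every syngeneic heart pool in level.

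For miR-7b the order began with allogeneic hearts at -4.44 ± 1.15 log2 units, followed by allogeneic GIL at -5.19 ± 0.15, and these 2 overlapped. Syngeneic hearts followed at -6.41 ± 0.26, then PBMC at -6.62, syngeneic GIL at -7.44 ± 0.04 and normal hearts at -7.65. PBMC lay inside the range of syngeneic hearts, and normal hearts lay below every syngeneic GIL pool. By the deposited delta Ct, PBMC lay below syngeneic hearts in level, at 13.571 against 12.507 to 12.938. For both members the allogeneic groups were the highest 2 of 6 and normal hearts the lowest.

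The 2 assays kept a nearly fixed distance in some groups and not in others. The Ct of miR-7a minus that of miR-7b on the same card was -1.31, -1.35 and -1.33 cycles in allogeneic GIL pools 1, 2 and 3, and -1.46, -1.87 and -0.89 in syngeneic GIL. PBMC gave -0.81. In hearts it was -0.62, -0.97 and 1.33 in allogeneic pools, against -0.32, -0.09 and -0.23 in syngeneic pools and -0.37 in normal hearts. miR-7b had the earlier Ct on 1 of 14 arrays, the one with the marked well. Because assays differ in efficiency, the size of such a distance is not a ratio of amounts, and its change between arrays is what can be read. In hearts the mean distance was 0.13 cycles higher in allogeneic than in syngeneic pools, and the marked well decides its sign. Without the cards on which either member's well was marked, it averaged -0.80 in allogeneic and -0.16 in syngeneic pools (n = 2 each). The difference of -0.64 rests on these few pools, and the marked cards were left out after the data were seen. Over all 3 pools per group, an exact permutation test did not separate allogeneic from syngeneic hearts. With 3 pools against 3 it cannot reach a p under 0.1, so no conclusion is drawn from it.

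The assays with the most similar profile over the 6 groups were miR-342-3p, miR-449a, miR-155, miR-362-3p and miR-146a. Likeness was the root mean square difference from the mean profile of miR-7a and miR-7b over 6 group means, each profile centred on its own mean, among 189 other assays detected on at least 12 arrays. It was 0.74 log2 units for miR-342-3p, 0.77 for miR-449a, 0.78 for miR-155, 0.80 for miR-362-3p and 0.88 for miR-146a, where the median assay stood at 1.70. The profiles of miR-7a and miR-7b differed from each other by 0.52, and 0 of the 189 assays were nearer to either of them than the other was. The groups behind a profile share their arrays, 2 of them are single arrays, and the values carry no test.

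The nearest assays were picked for their likeness over these same arrays. Their differences and adjusted p-values therefore describe them and are no support for the likeness. miR-155, which is made by activated lymphocytes and macrophages, stood at 1.10 ± 0.35 in allogeneic minus syngeneic hearts (limma adjusted p = 0.0524) and was called in GIL (1.98 ± 0.26, limma adjusted p = 0.00713). miR-342-3p and miR-362-3p were called in hearts, at 1.30 ± 0.38 (limma adjusted p = 0.0431) and 1.13 ± 0.28 (limma adjusted p = 0.0249). In GIL they stood at 0.58 and 0.23 without passing. miR-146a, which NF-kB induces, was called in GIL (1.16 ± 0.24, limma adjusted p = 0.0158) and stood at 0.03 in hearts. miR-449a stood at 0.37 in hearts and at 3.33 ± 1.22 in GIL (limma adjusted p = 0.0787), where it was detected in 2 of 3 syngeneic pools.

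**Figure D4:**
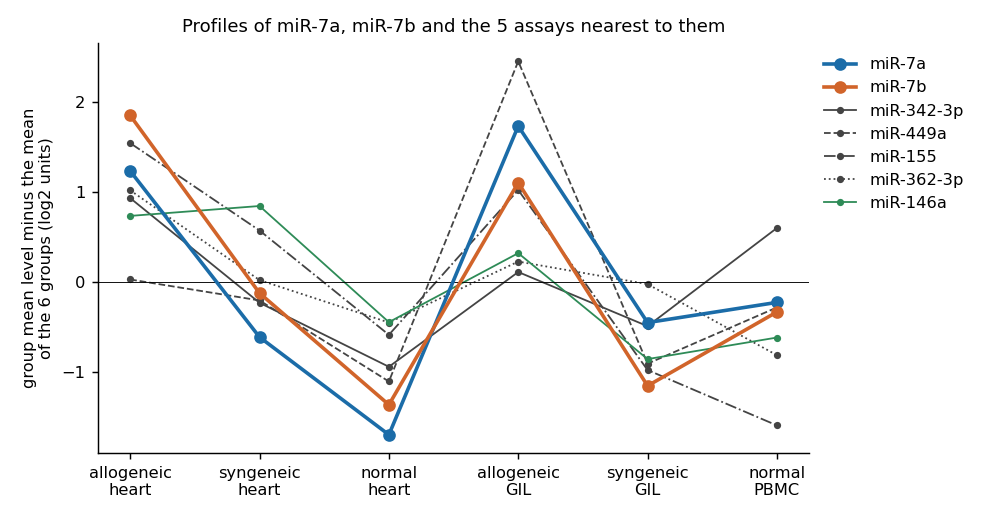
Group mean level minus the mean of the 6 groups, in log2 units (vertical axis), for miR-7a (blue), miR-7b (orange) and the 5 nearest assays (grey and green), over the 6 groups (horizontal axis; lines join the groups for reading only). miR-7a reaches 1.23 in allogeneic hearts and 1.73 in allogeneic GIL, miR-7b 1.85 and 1.10, and both are lowest in normal hearts, at -1.69 and -1.36.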

How the data were processed

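Small RNA of 14 pools was measured on TaqMan rodent microRNA cards after Megaplex reverse transcription and preamplification (7900HT instrument), per the labels' protocols. RNA of 3 animals was pooled for each card, 100 ng each. Per the file headers, the authors exported the tables from SDS 2.4, and baseline and threshold settings are not given in the sources used here. The Ct is a threshold cycle. Deposited delta Ct values are log2 values with the sign turned, formed by subtracting the snoRNA202 Ct. Deposited relative quantities are ratios against the normal array in each table (within 1% for 100% of the values checked).

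Levels were recomputed from Ct. Alternatives covered scaling, the Ct limit, the filter, blocks, left-out pools and left-out marked wells. Undetermined wells and those past Ct 35 were set to 35. In 1 well the array name differed, and it was left out. An assay was tested when detected on every array of at least 1 group compared. Models with 3 groups were fitted per table with lmFit and eBayes of limma 3.58.1 in R 4.3.3. The two-sided tests gave p-values adjusted by Benjamini-Hochberg over all assays tested, after the scripts were tested on simulated data. Summed list levels are the log2 of the summed linear levels. Named assays were the members, the 5 most alike in profile, the leading 3 of each list, and any miR-671 assay. miR-153 and miR-218 fall outside that rule and were named after their values were seen. Members and lists were chosen with earlier results of these data known. Nothing states that pools are independent transplant series, so p-values measure the spread between pools. Arrays give no counts, and their number limits the precision.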

Additional observations from a re-analysis of the deposited data

How the results depend on the processing

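Under all alternatives run, both members stayed above 0 in allogeneic minus syngeneic hearts, allogeneic minus normal hearts, and allogeneic minus syngeneic GIL. Allogeneic GIL minus PBMC also stayed above 0, but by quantiles it was 0.86 ± 0.93 for miR-7a and 0.030 ± 1.02 for miR-7b (SE). Both of these values are smaller than their SE. The random run-day block and leaving out marked wells were added after the data were seen. The replicate numbers did not pair the arrays (correlations of deviations -0.04, -0.29 and 0.12 in hearts, 0.19, 0.23 and -0.16 in GIL). Each replicate number occurs once in each graft group, so the replicate block cannot move the differences, which stayed at 1.98 and 2.11 in hearts. It can change the spread, and with it miR-7b had an adjusted p of 0.0615 (limma) and 46 assays were called in place of 77. In GIL the differences stayed at 2.16 and 2.23 for the same reason.

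In allogeneic minus syngeneic hearts, calls fell to 34 when scaled to MammU6, 42 with no filter and 2 under the fixed run-day block, where miR-7a stood at 1.90 and miR-7b at 2.46. Without single pools there were 42 to 81 calls, and miR-7b stood at 1.55 to 2.60. With no filter miR-7b was 2.11, at an adjusted p of 0.0643 (limma). Within the later run day miR-7a was 1.61 and miR-7b 3.03. Scaling moved the median of all assays tested from 0.02 to 0.18 (snoRNA202), -0.10 (MammU6) or -0.24 (median of reference assays), and the 41 higher to 36 lower calls became 42 to 23 and, by the median, 24 to 56. MammU6 scaling gave 58 calls in place of 125 in allogeneic and 24 in place of 46 in syngeneic minus normal hearts. The split of higher to lower calls against normal hearts, 63 to 62 and 28 to 18, became 38 to 20 and 20 to 4 (MammU6), 79 to 29 and 31 to 10 (snoRNA202), and 46 to 75 and 19 to 19 (quantiles). miR-7a in syngeneic minus normal hearts was 1.53 scaled to snoRNA202 and -0.11 by quantiles.

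In allogeneic minus syngeneic GIL, miR-7a and miR-7b were 2.98 and 3.05 scaled to MammU6, 3.05 and 3.12 to snoRNA202, 2.81 and 2.88 to snoRNA135 with snoRNA202, and 3.13 and 3.37 by quantiles; miR-7b was 2.45 by the median. The median of all assays moved from -0.24 to 0.58, 0.65, 0.41, 0.06 and -0.02 in that order, and the 25 higher to 48 lower calls to 34 to 20, 38 to 10, 21 to 10, 34 to 31 and 36 to 39. Calls fell to 48 (snoRNA202), 31 (both small RNAs) and 35 (no filter), in place of 73, and were 40 to 73 without single pools. At a limit of Ct 32 miR-7b was detected throughout neither GIL group and was not tested.

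In allogeneic GIL minus PBMC, miR-7a and miR-7b were 3.30 and 2.78 (snoRNA202), 2.93 and 2.404 (both small RNAs), 2.39 and 1.87 (median) and 0.86 and 0.030 (quantiles). miR-7b was 1.14 to MammU6, 1.96 at Ct 32 and 1.13 at Ct 40. Calls were 63 (snoRNA202) and 62 (both small RNAs) in place of 123. The split of 47 higher to 76 lower became 54 to 9, 49 to 13, 52 to 46 (median) and 43 to 43 (quantiles); that of syngeneic GIL, 66 to 73, became 53 to 92 (MammU6), 63 to 31 (snoRNA202) and 63 to 35 (both). In syngeneic GIL minus PBMC they were -1.31 and -1.91 (MammU6), 0.25 and -0.34 (snoRNA202), 0.11 and -0.48 (both small RNAs), 0.017 and -0.58 (median), -2.27 and -3.34 (quantiles) and 0.13 and 0.12 (Ct 32), and miR-7b was -1.14 at Ct 40. The direction against PBMC is therefore not settled for miR-7a in syngeneic GIL, and the cause was not tested. For miR-7b it was below 0 in 15 of 16 alternatives, and at Ct 32 all 3 syngeneic pools lie past the limit, which sets the value. With no filter or without allogeneic pool 1 or 2 the miR-7b difference was again -0.82. The median of all assays tested was itself -0.77, and was -0.30 scaled to snoRNA202 and -1.86 to MammU6. By quantiles that median was -0.94, against -3.34 for miR-7b. A fall of miR-7b beyond that of all assays was not tested. The 5 most alike assays cannot change with scaling, which shifts all assays of an array equally.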
